A study of Mus musculus with 6 samples.

Results

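The enamel and dentin matrix genes described here are Amelx, Ambn, Enam, Mmp20, Klk4, Amtn, Odam and Dspp, 8 genes of 22029 in the embryonic table and of 22028 in the postnatal table, found by symbol in both. They were chosen by their FPKM in these 6 libraries, which was already known, so their levels and differences are given as a description and no test was made on them. FPKM is the number of sequenced fragments per kilobase of transcript, scaled to the number of fragments mapped in the library. Polyadenylated RNA came from mouse olfactory epithelium, the sensory lining of the nose, in animals of mixed background that was chiefly C57/B6. At E18.5, late in gestation, the 4 libraries were a G9a heterozygote (drawn as G9a het), a G9a knockout (G9a KO), a G9a knockout that was also heterozygous for GLP (G9a KO GLP het) and a double knockout of both (G9a/GLP dKO). At PND21, the third week after birth, the libraries were a suv420H1/suv420H2 double heterozygote (Suv420h dhet) and the double knockout (Suv420h dKO). G9a and GLP place repressive methyl marks on histone H3, and the suv420H enzymes place them on histone H4. No group was wild type, each group was 1 library, and which cells lost the alleles is stated nowhere in the labels.

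Enamel is laid down by ameloblasts, epithelial cells of the tooth germ, and dentin by odontoblasts, which lie beneath them and come from the dental mesenchyme. Ameloblasts first secrete a soft protein matrix made chiefly of amelogenin, which is cut by proteases while mineral crystals grow through it, and later remove that matrix as the enamel hardens. In mice the teeth begin to lay down these tissues around birth, in the jaws beneath the nose. Several of the genes belong to the secretory calcium-binding phosphoprotein family, most of whose members lie in clusters on chromosome 5 in mice.

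As a check of the labelled tissue, Omp, the marker protein of mature olfactory neurons, was at 78.6 FPKM in the G9a heterozygote, 36.0 in the G9a knockout, 21.2 in the G9a KO GLP heterozygote and 24.0 in the G9a/GLP double knockout, and at 1124 and 1108 FPKM in the Suv420h double heterozygote and double knockout libraries. The summed FPKM of 5 mature neuron markers was 199, 94.6, 58.8 and 71.9 in the embryonic libraries in that order. The targeted genes checked nothing, since gene-level FPKM includes transcript outside a deleted part: Ehmt2, which encodes G9a, was at 24.5 to 32.5 FPKM and Ehmt1, which encodes GLP, at 15.8 to 20.8 across the 4 embryonic libraries, and Suv420h1 at 31.0 and 30.6 and Suv420h2 at 7.92 and 7.35 FPKM in the postnatal pair. Total depth was not given in the tables. Precision is therefore that of the interval deposited by the authors beside each embryonic FPKM, which with 1 library rests on their tool's model of the variance and not on replicate animals. Between 256 and 330 of the 22029 embryonic values per library lay outside their own interval.

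The matrix genes, Amelx above all, were highest in the G9a heterozygote and G9a knockout libraries and scarce in the libraries that also lacked GLP alleles. The summed FPKM of the 8 genes was 1004 in the G9a heterozygote, 509 in the G9a knockout, 41.3 in the G9a KO GLP heterozygote and 13.0 in the G9a/GLP double knockout, while the sum over all genes lay between 352950 and 366752. Without Amelx the sums were 267, 121, 26.7 and 9.56 FPKM. All 8 genes were at 1 FPKM or more in the G9a heterozygote and the G9a knockout, 6 in the G9a KO GLP heterozygote and 4 in the double knockout. The order G9a heterozygote, G9a knockout, G9a KO GLP heterozygote, double knockout held for 6 of the 8, with Klk4 and Dspp the exceptions. In a bulk library, fewer cells of a type and less RNA in each cell cannot be told apart.

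**Figure D1:**
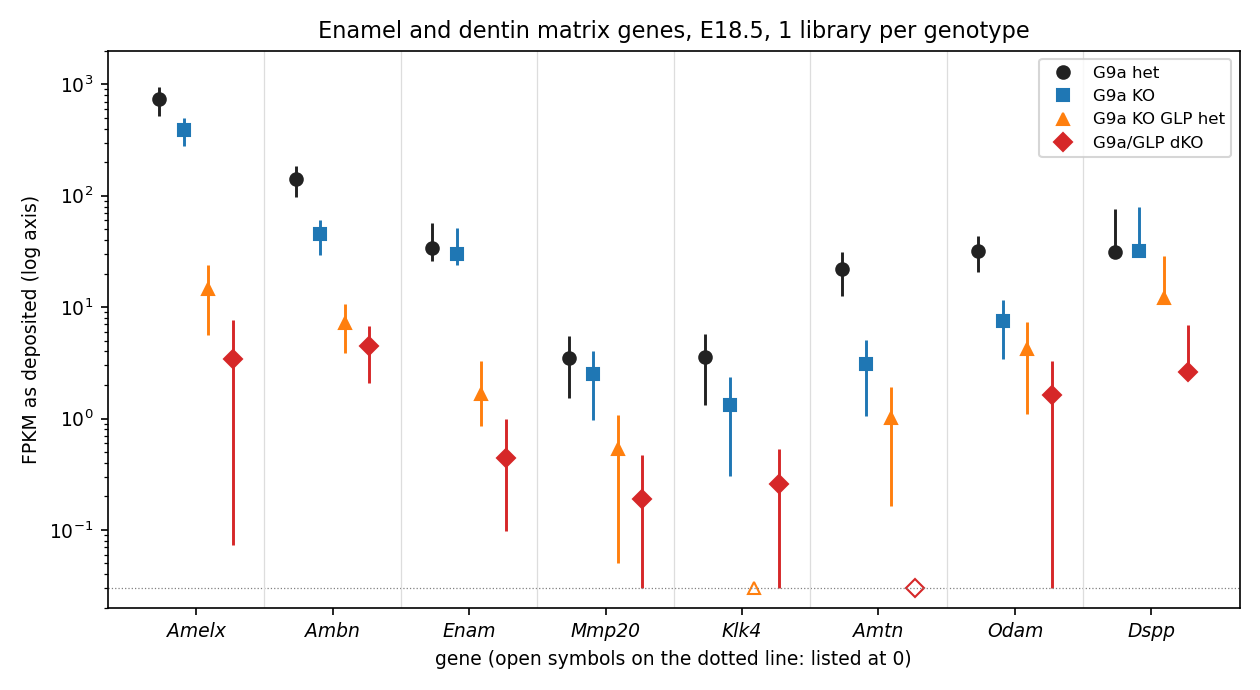
FPKM of the 8 matrix genes (log axis) in the 4 embryonic libraries, 1 point per library, with the authors' deposited interval as a vertical line that ends at the dotted line where its lower bound is 0. The G9a heterozygote and the G9a knockout points of Amelx, at 737 and 388 FPKM, lie far above those of the G9a KO GLP heterozygote and the double knockout, at 14.6 and 3.45, and Dspp points lie at or below the lower part of their intervals.

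Amelx encodes amelogenin, the main protein of forming enamel. Its deposited span (mm9 chromosome X, 165233031 to 165742367) is shared with Arhgap6, since Amelx lies inside Arhgap6 on the other strand in the GENCODE M21 annotation, with no exon in common. Amelx was at 737 FPKM in the G9a heterozygote, with an interval of 522 to 952, and at 388 FPKM in the G9a knockout, with an interval of 277 to 500. It was at 14.6 FPKM in the G9a KO GLP heterozygote, with an interval of 5.59 to 23.7, and at 3.45 FPKM in the double knockout, with an interval of 0.0732 to 7.68. The first 2 libraries were thus high and the others low, with overlapping intervals only between the G9a KO GLP heterozygote and the double knockout. Among the 22029 genes, Amelx ranked 27 in the G9a heterozygote, 71 in the G9a knockout, 5594 in the G9a KO GLP heterozygote and 12137 in the double knockout. Its FPKM was 50.4-fold lower in the G9a KO GLP heterozygote than in the G9a heterozygote and 214-fold lower in the double knockout, where the nearest bounds of the intervals were 67.9-fold apart. Arhgap6 was at 1.56 to 2.48 FPKM in all 4. Amelx is X-linked in mice. Xist, which coats the silenced X in females, was at 140 FPKM in the G9a knockout and 208 in the double knockout. It was below 1 FPKM in the other embryonic libraries. In the Suv420h double heterozygote and double knockout it was at 120 and 112 FPKM. Sex and genotype cannot be told apart between libraries that differ in both. By Xist level, the G9a heterozygote and the G9a KO GLP heterozygote were alike, and so were the G9a knockout and the double knockout. Within these pairs Amelx was 50.4-fold lower in the G9a KO GLP heterozygote and 113-fold lower in the double knockout. The part of sex was not tested.

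Ambn and Enam, the other structural proteins of the secretory stage, were high and low in the same libraries as Amelx. Ambn (mm9 chromosome 5, 88885036 to 88897554) encodes ameloblastin, which helps to hold ameloblasts on the enamel surface. Ambn was at 141 FPKM in the G9a heterozygote, 45.1 in the G9a knockout, 7.26 in the G9a KO GLP heterozygote and 4.44 in the double knockout. Intervals of Ambn were apart except for the last pair, which were 3.88 to 10.7 and 2.07 to 6.80 FPKM. Enam (chromosome 5, 88917000 to 88935074) encodes enamelin, which is needed for crystals to lengthen at the enamel surface. Enam was at 34.0 FPKM in the G9a heterozygote, 29.9 in the G9a knockout, 1.66 in the G9a KO GLP heterozygote and 0.443 in the double knockout. Its intervals in the G9a heterozygote and the G9a knockout, 26.1 to 57.1 and 23.8 to 51.7 FPKM, overlapped nearly throughout, and both lay above those of the other libraries, which did not pass 3.26.

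The enamel proteases were measured at low levels. Mmp20 (chromosome 9, 7628231 to 7674968) encodes the metalloproteinase that cuts amelogenin during secretion. Mmp20 was at 3.48 FPKM in the G9a heterozygote, 2.49 in the G9a knockout, 0.530 in the G9a KO GLP heterozygote and 0.191 in the double knockout. Neighbours in that order had overlapping intervals at each step, whereas the double knockout interval of 0 to 0.470 FPKM lay below those of the G9a heterozygote and the G9a knockout. Klk4 (chromosome 7, 51136542 to 51141174) encodes the serine protease that clears the matrix during maturation. Klk4 was at 3.56 FPKM in the G9a heterozygote, 1.33 in the G9a knockout and 0.257 in the double knockout, and was listed at 0 in the G9a KO GLP heterozygote, where its interval was 0 to 0. Klk4 was thus the only member not lowest, among these 4 libraries, in the double knockout, and its intervals in the G9a knockout and the double knockout, 0.303 to 2.35 and 0 to 0.538, overlapped.

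Amtn and Odam were highest in the G9a heterozygote and already low in the G9a knockout. Amtn (chromosome 5, 88805133 to 88814941) encodes amelotin, a protein of the basal lamina of maturation-stage ameloblasts. Amtn was at 21.9 FPKM in the G9a heterozygote, 3.07 in the G9a knockout and 1.02 in the G9a KO GLP heterozygote, and was listed at 0 in the double knockout. The G9a heterozygote interval of 12.5 to 31.0 FPKM lay above that of the G9a knockout, 1.06 to 5.05, which overlapped that of the G9a KO GLP heterozygote. Odam (chromosome 5, 88314720 to 88321767) encodes a protein of the same basal lamina and of the junctional epithelium, where gum meets tooth. Odam was at 31.9 FPKM in the G9a heterozygote, 7.51 in the G9a knockout, 4.18 in the G9a KO GLP heterozygote and 1.61 in the double knockout. Only its G9a heterozygote interval, 20.6 to 43.1 FPKM, stood apart from the next in order.

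Dspp, the dentin gene, differed little between the G9a knockout and the G9a heterozygote. Dspp (chromosome 5, 104599731 to 104609146) encodes the precursor of dentin sialoprotein and dentin phosphoprotein, made chiefly by odontoblasts. Dspp was at 31.1 FPKM in the G9a heterozygote, 31.9 in the G9a knockout, 12.0 in the G9a KO GLP heterozygote and 2.62 in the double knockout. In the first 3 of these libraries its FPKM lay below its own interval, for example 34.3 to 75.6 FPKM in the G9a heterozygote, so its level is less certain than those of the enamel genes. The intervals of the G9a KO GLP heterozygote, 12.9 to 28.5 FPKM, and of the double knockout, 2.37 to 6.95, were apart from each other and from both higher libraries.

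Each embryonic library was set against the G9a heterozygote on log2(FPKM + 1), among genes at 1 FPKM or more in either library; the 3 comparisons share the G9a heterozygote library. This scale understates the differences of low genes such as Mmp20 and Klk4. In the G9a knockout, 3 of 8 members were at least 2-fold lower and none higher, where 1.52% of 15173 genes were lower and 1.07% higher. Amtn had a log2 ratio of -2.49, Odam of -1.95 and Ambn of -1.62. Those 3 also had intervals apart from the G9a heterozygote, and 0.903% of all genes were 2-fold lower with intervals apart. Amelx was at -0.92, and Klk4 was at -0.97 on this scale although its FPKM was 2.68-fold lower. With 0.1 FPKM added in place of 1, Klk4 was at -1.36 and 4 members were at least 2-fold lower. The Klk4 intervals overlapped, and the Amelx intervals were separated by a factor of only 1.04. Mmp20 at -0.36, Enam at -0.18 and Dspp at 0.04 had overlapping intervals. The genes furthest from the G9a heterozygote were thus Amtn and Odam of the maturation stage together with Ambn, and those nearest were Enam, Mmp20 and Dspp.

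In the G9a KO GLP heterozygote all 8 members were at least 2-fold lower than in the G9a heterozygote, with intervals that did not overlap, where 4.58% of 15233 genes were lower, 2.16% higher and 3.04% lower with intervals apart. The log2 ratio was -5.56 for Amelx, -4.10 for Ambn, -3.72 for Enam, -3.51 for Amtn, -2.66 for Odam, -1.55 for Mmp20 and -1.30 for Dspp. Klk4 was listed at 0 with an interval of 0 to 0, which can be a failed estimate, so 7 of the 8 calls rest on values above 0. In the double knockout all 8 were again at least 2-fold lower with intervals apart, where 3.01% of 15301 genes were lower, 2.2% higher and 2.17% lower with intervals apart. Here the log2 ratio was -7.37 for Amelx, -4.71 for Ambn, -4.60 for Enam, -3.65 for Odam, -3.15 for Dspp, -1.91 for Mmp20 and -1.86 for Klk4. Amtn was listed at 0 in the same way, so here too 7 calls rest on values above 0. The share of all genes with a ratio at or below that of Amelx was 0.0131% in both comparisons, Amelx itself included. Among members above 0 in both libraries, the median log2 ratio was -0.95 over 8 in the G9a knockout, -3.51 over 7 in the G9a KO GLP heterozygote and -3.65 over 7 in the double knockout, beside medians over all genes of 0.02, -0.02 and 0.01.

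**Figure D2:**
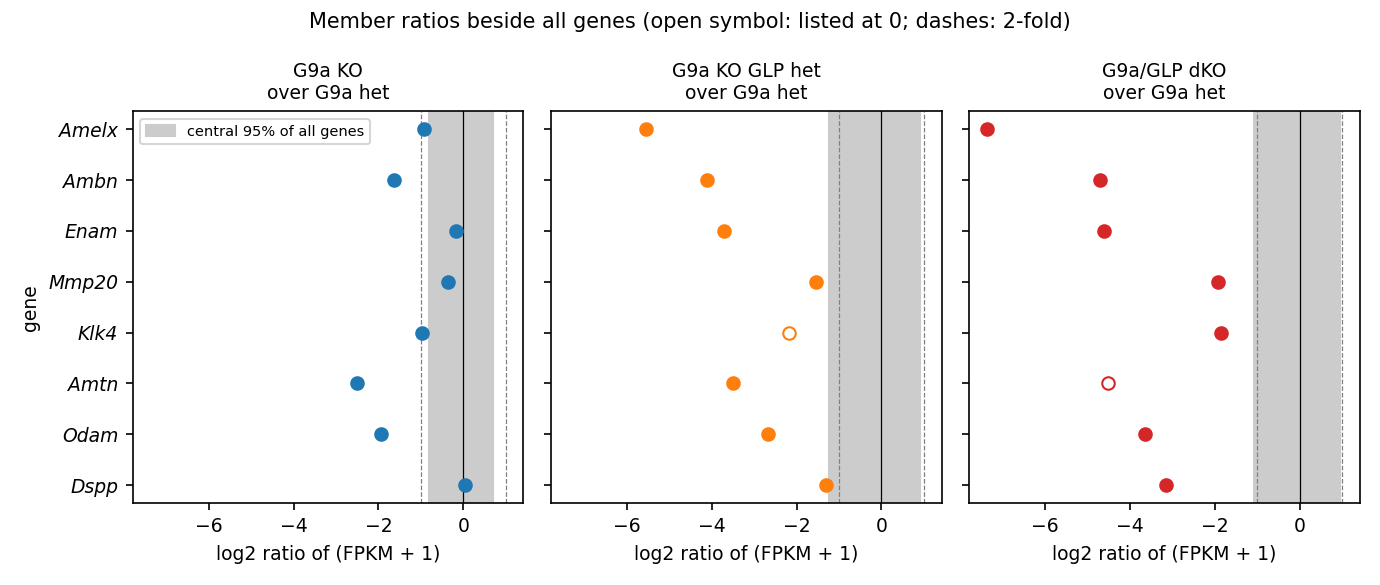
Log2 ratio of (FPKM + 1) over the G9a heterozygote for each matrix gene in the 3 other embryonic libraries, with the central 95% of all genes shaded and 2-fold marked by dashes. In the G9a knockout the points run from -2.49 for Amtn to 0.04 for Dspp, and in the double knockout each point lies below the shaded range, which ends at -1.07.

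The 3 knockout libraries also differed among themselves. Against the G9a knockout, 7 of 8 members were at least 2-fold lower in the double knockout, with intervals apart, and Klk4 was at -0.89. Of 15083 genes, 1.24% were lower, 1.51% higher and 0.636% lower with intervals apart. The Odam intervals in this pair were separated by a factor of only 1.04. Dspp had a log2 ratio of -3.18 in that pair, close to its ratio of -3.15 against the G9a heterozygote. The G9a KO GLP heterozygote had 7 of 8 at least 2-fold lower than the G9a knockout, where 3.84% of 15065 genes were lower and 1.76% higher, and Odam was at -0.72. Intervals were apart for 5 of the 7, as they were with a 2-fold lower value for 2.42% of all genes, and those of Mmp20 and Amtn overlapped. Between the double knockout and the G9a KO GLP heterozygote, 3 of the 6 members that reached 1 FPKM were at least 2-fold lower in the double knockout, where 1.09% of 15087 genes were lower, 2.95% higher and 0.563% lower with intervals apart. These were Amelx at -1.81, Dspp at -1.85 and Amtn, and only those of Dspp and Amtn had intervals apart. The calls of Amtn in the double knockout and of Klk4 in the G9a KO GLP heterozygote again rest on a listed 0.

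Ratios between genes of 1 library do not depend on scaling between libraries, and they were not constant. In FPKM, Amelx stood at 23.7 times Dspp in the G9a heterozygote and 12.2 times in the G9a knockout, against 1.21 times in the G9a KO GLP heterozygote and 1.32 times in the double knockout. The order of abundance was thus led by Amelx in the first pair and shared between enamel and dentin genes in the second. Dspp FPKM lay below its own interval in all but the double knockout, so its ratios are less certain. In the G9a KO GLP heterozygote the intervals of Amelx, 5.59 to 23.7 FPKM, and Dspp, 12.9 to 28.5, overlapped. As a share of Amelx FPKM, Ambn was at 19.1% in the G9a heterozygote, 11.6% in the G9a knockout, 49.7% in the G9a KO GLP heterozygote and 129% in the double knockout. Enam was at 4.62%, 7.70%, 11.4% and 12.9% of Amelx in the same order. Amtn was at 2.97% of Amelx in the G9a heterozygote and 0.790% in the G9a knockout, Odam at 4.32% and 1.93%, and Klk4 at 0.483% and 0.342%, while Mmp20 was at 0.473% and 0.641%. Relative to Amelx, Ambn, Amtn, Odam and Klk4 were thus lower in the G9a knockout than in the G9a heterozygote, and Enam, Mmp20 and Dspp higher, with overlapping intervals of FPKM between these libraries for Klk4, Enam, Mmp20 and Dspp. In the double knockout the Amelx interval spans 0.0732 to 7.68 FPKM, so shares of it there are loose.

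Genes that ameloblasts express but that other epithelia also use were, except Acpt, above 0 in all 4 libraries. Most were within 2-fold of the G9a heterozygote. Of 20 such genes, 20 were measured in each comparison with the G9a heterozygote. None was 2-fold apart in the G9a knockout, 1 was lower in the G9a KO GLP heterozygote and 4 were lower in the double knockout. Among all genes, 1.52%, 4.58% and 3.01% were lower, so the share of this list in the double knockout was above that of all genes. The median log2 ratios of the list were -0.05, -0.08 and -0.24, beside 0.02, -0.02 and 0.01 over all genes. The 4 in the double knockout were Shh, a signal of the tooth bud epithelium, at 13.7 against 31.1 FPKM, Sp6, a transcription factor needed for ameloblasts, at 13.9 against 30.0, Msx2, a homeobox factor of the enamel organ, at 6.82 against 15.8, and Acpt, an acid phosphatase in which human mutations cause enamel defects, listed at 0 against 1.49. Dlx3, a homeobox factor of dental and skin epithelium, was at 20.1 FPKM in the G9a heterozygote and 17.5 in the double knockout. The summed FPKM of the 20 was 248, 235, 216 and 184 in the order of genotypes given above, against 973, 478, 29.3 and 10.4 for the 7 enamel matrix genes.

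Most genes listed for odontoblasts, dental mesenchyme and bone were also within 2-fold, as were most of all genes. Dspp itself was within 2-fold only in the G9a knockout. None of 12 odontoblast and dental mesenchyme genes, a list without Dspp, was 2-fold apart in any of the 3 comparisons with the G9a heterozygote, with medians of 0.05, 0.15 and -0.08. Barx1, a homeobox factor of molar mesenchyme, was at 17.6 to 21.9 FPKM, and Pax9, which is needed for teeth to pass the bud stage, at 9.15 to 13.1. Of 6 bone genes, Bglap, which encodes osteocalcin, was at 93.9 FPKM in the G9a KO GLP heterozygote against 281 in the G9a heterozygote, and the others were within 2-fold in all 3 comparisons. Dmp1, a phosphoprotein of odontoblasts and osteocytes that lies beside Dspp, was at 95.8, 76.5, 68.0 and 49.9 FPKM in the 4 libraries, a much narrower range than that of Dspp.

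Other gene groups also differed between these libraries, some in the direction of the matrix genes and some not. Their part in the result was not tested. Among all genes, 1.52% were at least 2-fold lower and 1.07% higher in the G9a knockout. These shares were 4.58% and 2.16% in the G9a KO GLP heterozygote, and 3.01% and 2.2% in the double knockout. Of 10 oral and skin epithelium genes, 3 were at least 2-fold higher in the G9a KO GLP heterozygote and in the double knockout: Krt10, a keratin of skin and other cornified surfaces, was at 162 FPKM in the G9a heterozygote, 260 in the G9a knockout, 529 in the G9a KO GLP heterozygote and 899 in the double knockout, and Krt1 and Lor were the others. Krt4, a keratin of the moist lining of the mouth, was at 797, 1155, 395 and 446 FPKM, 2-fold lower in the G9a KO GLP heterozygote. The summed level of the 10 was 3331, 4774, 3566 and 4682 FPKM, and none was at 0. Mature olfactory neuron markers were at least 2-fold lower for 3 of 5 in the G9a knockout and 4 of 5 in each of the other libraries. Supporting cell markers were lower for 0 of 3, 2 of 3 and 3 of 3, with summed levels of 893, 639, 416 and 380 FPKM. Of 6 skeletal muscle genes, Myh8 was lower in the G9a knockout and Myh3 higher in the G9a KO GLP heterozygote, with summed levels of 1060 to 1839 FPKM. Immature neuron markers summed to 113, 112, 56.3 and 109 FPKM. Of these, Gap43 was at 92.3, 92.8, 38.6 and 89.1 FPKM, whereas Gng8 differed little, at 20.3, 19.3, 17.7 and 20.3.

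**Figure D3:**
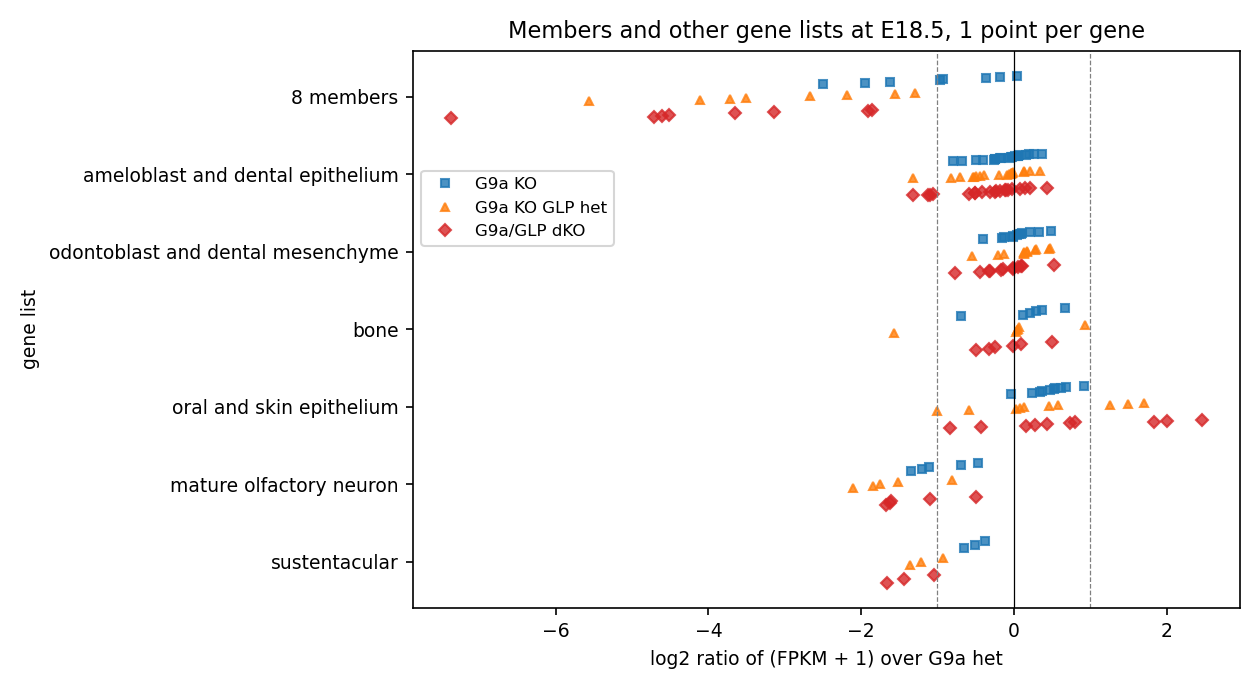
Log2 ratio of (FPKM + 1) over the G9a heterozygote for the matrix genes and for genes of 6 other lists at 1 FPKM or more in either library, 1 point per gene, with 2-fold marked by dashes. In the double knockout the median is -3.65 over the 7 matrix genes above 0 in both libraries and -0.24 over the ameloblast and dental epithelium list. Of that list 4 of 20 genes are at least 2-fold lower, beside 3.01% of all genes.

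Most measured neighbours on the chromosome, like most of all genes, were within 2-fold of the G9a heterozygote. Within 300 kb of a member's span the table held 73 other genes, of which 36 to 38 were measured in each comparison. At least 2-fold lower than the G9a heterozygote were 1 of 37 in the G9a knockout. In the G9a KO GLP heterozygote 4 of 38 were lower, and in the double knockout 3 of 36. Over all genes 1.52%, 4.58% and 3.01% were lower. Higher were 1, 2 and 1 neighbours, beside 1.07%, 2.16% and 2.2% of all genes. Utp3, a nucleolar protein gene beyond Enam, was at 16.5 to 19.5 FPKM in the 4 libraries. Grsf1, an RNA-binding protein gene further on, was at 42.5, 40.3 and 38.1 FPKM and listed at 0 in the G9a KO GLP heterozygote, which can be a failed estimate. A list of 10 secretory phosphoprotein genes and neighbours, partly the same genes, had 7 measured in each comparison, with 0, 2 and 2 lower and 0, 1 and 0 higher. Near Odam, Csn3, which encodes kappa casein and belongs to the same phosphoprotein family, was at 11.8, 10.1, 3.30 and 1.87 FPKM, and Sult1e1, an estrogen sulfotransferase gene, was at 19.9, 1.84, 1.30 and 1.67 FPKM. Near Dspp, Mepe, a phosphoprotein of bone and teeth, was at 4.96, 3.10, 1.42 and 0.751 FPKM, while Ibsp, a sialoprotein of bone, was at 779, 828, 697 and 500. Scpppq1, a further gene of the secretory phosphoprotein family, was at 0.970 FPKM in the G9a heterozygote and 0.143 in the G9a knockout and was listed at 0 in both other libraries. Among 21 other kallikrein genes around Klk4, none of the 9 or 10 measured was 2-fold lower in any of the 3 comparisons and 1 was higher in each, among them Klk7 at 8.08 FPKM in the G9a heterozygote and 21.8 in the double knockout.

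**Figure D4:**
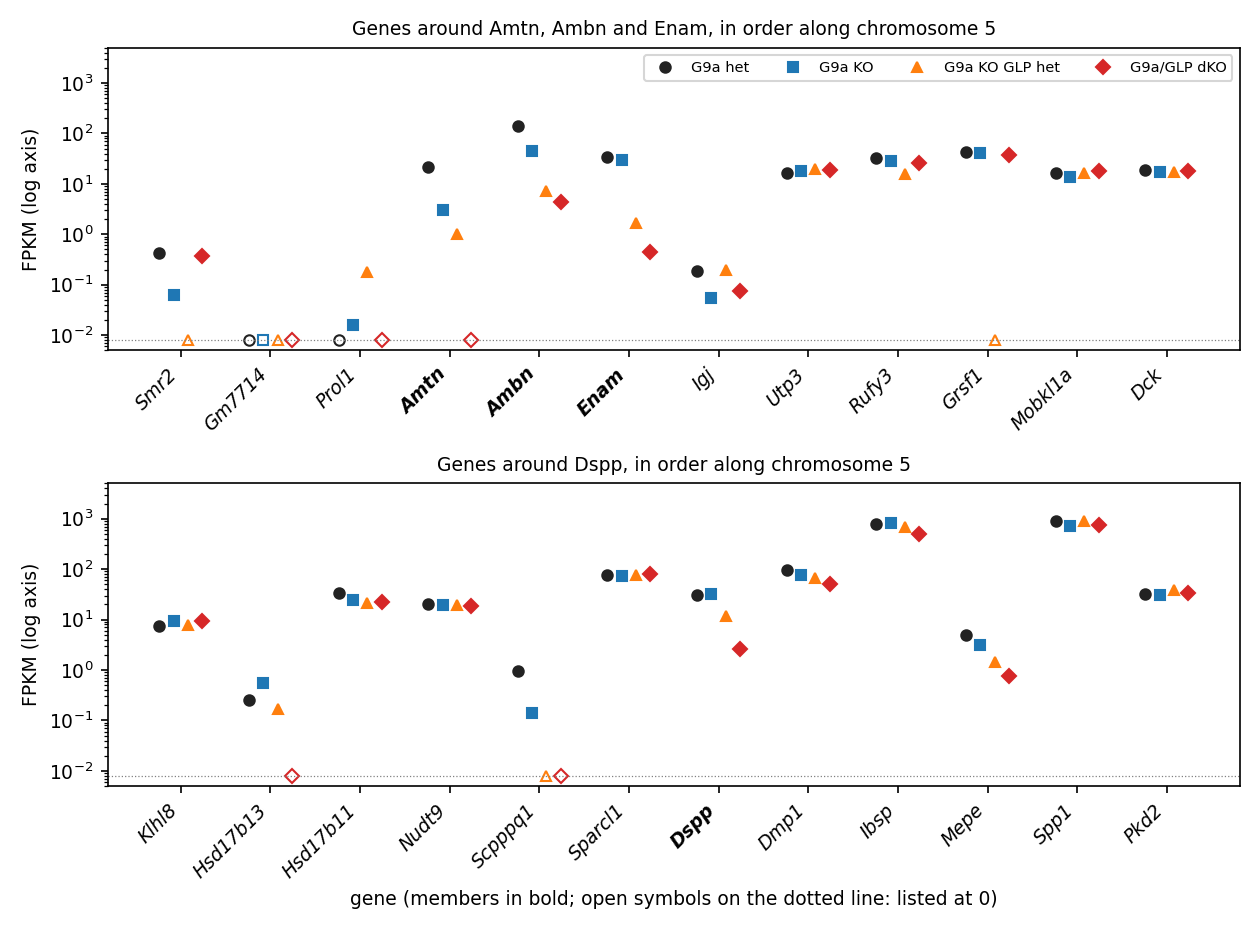
FPKM (log axis) in the 4 embryonic libraries for genes around Amtn, Ambn and Enam and around Dspp, in chromosomal order and evenly spaced, with members in bold. Amtn, Ambn, Enam and Dspp spread widely between libraries, whereas Utp3 at 16.5 to 19.5 FPKM and Spp1 at 734 to 896 FPKM do not. Some other neighbours also spread, such as Mepe at 0.751 to 4.96 FPKM, and Grsf1 is listed at 0 in the G9a KO GLP heterozygote.

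The promoters of the matrix genes are shown because 5 of them carry the same letters at a similar place. RefSeq promoters on GRCm38.p6 were matched by symbol for 7 of the 8 members, all but Dspp. The 100 bases before each start are printed 5′ to 3′ on the gene's strand, with capitals marking TGATTGG, which holds the reversed CCAAT letters, and TATAAA.
Amelx, minus strand, chrX:169187210-169187309: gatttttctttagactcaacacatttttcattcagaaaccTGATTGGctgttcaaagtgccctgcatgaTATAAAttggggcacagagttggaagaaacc
Ambn, plus strand, chr5:88455891-88455990: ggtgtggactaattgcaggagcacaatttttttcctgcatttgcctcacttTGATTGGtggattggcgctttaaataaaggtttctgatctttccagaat
Enam, plus strand, chr5:88487875-88487974: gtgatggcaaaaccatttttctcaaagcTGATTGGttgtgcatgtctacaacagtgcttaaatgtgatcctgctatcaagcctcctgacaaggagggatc
Amtn, plus strand, chr5:88376008-88376107: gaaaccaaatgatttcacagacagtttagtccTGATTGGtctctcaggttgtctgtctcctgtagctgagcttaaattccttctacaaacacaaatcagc
Odam, plus strand, chr5:87884910-87885009: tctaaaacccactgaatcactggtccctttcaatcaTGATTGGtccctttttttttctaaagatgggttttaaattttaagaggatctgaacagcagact
Mmp20, plus strand, chr9:7628131-7628230: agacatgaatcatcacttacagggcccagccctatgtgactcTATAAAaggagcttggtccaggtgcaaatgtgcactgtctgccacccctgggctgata
Klk4, plus strand, chr7:43881060-43881159: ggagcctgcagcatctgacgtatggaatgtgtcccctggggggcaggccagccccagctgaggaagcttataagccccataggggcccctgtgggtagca

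TGATTGG, chosen after the promoters were read, began 60 bases before the start of Amelx, 49 before Ambn, 72 before Enam, 68 before Amtn and 64 before Odam, on the gene's own strand each time. These 5 genes encode the structural and basal lamina proteins of enamel. The letters were not found in the windows of the proteases Mmp20 and Klk4, which belong to other gene families. Dspp, the dentin matrix gene, had no matched promoter and could not be searched. Searched on both strands from 250 bases before to 50 bases after the start, TGATTGG was in 7.82% of 32851 RefSeq promoters, and on the gene's strand between 80 and 40 bases before the start in 1.29%. That narrower window was also set after the members' matches were seen, so neither share is a test. TATAAA was in 3 of the 7 members' windows and in 13.6% of all, TAATTA in 1 and 5.29%, TGTGGT in 1 and 16.8%, and CATCTG in 2 and 17.2%. None of these letters overlaps another in the members' windows. The 5 genes are related by descent in part, so their promoters are not independent, and a match of letters is not a binding site.

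The genes with profiles over the 4 embryonic libraries nearest to those of Amelx and Dspp were listed. Likeness was the distance between profiles of log2(FPKM + 1), each centred on its mean, among 11640 other genes at 5 FPKM or more in any of the 4. The 5 nearest to Amelx were Enam at a distance of 2.11, Ttr at 2.18, Lcn11 at 2.24, Ambn at 2.61 and Amtn at 3.47, beside a median of 6.17 over all genes. Ttr, the thyroid hormone carrier transthyretin, was at 65.6, 24.7, 0.435 and 1.03 FPKM, and Lcn11, a lipocalin, at 71.9, 10.9, 0.590 and 0.221, and Lcn11 was at 2078 and 2839 FPKM in the postnatal libraries, where Ttr was at 0.588 and listed at 0. The 5 nearest to Dspp were Tmem181d-ps at 0.54, Rsc1a1 at 0.73, Serpina3n at 0.96, Calb1 at 0.97 and Csn3 at 1.03, beside a median of 2.61. Calb1, a calcium-binding protein found in ameloblasts and in neurons, was at 11.6, 19.1, 7.56 and 2.66 FPKM. Most genes differ little between these libraries, so each median distance mainly reflects the size of the differences of Amelx or Dspp itself. Enam, Ambn and Amtn are members, chosen by their FPKM in these libraries, so their nearness is no separate result. With 4 libraries many genes share a profile, so these are descriptions only.

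At PND21 the matrix genes other than Odam were nearly absent from the Suv420h double heterozygote library, and 3 of them were above 3 FPKM in the double knockout. Among the 4 members that reached 1 FPKM in the pair, the double knockout had 3 at least 2-fold higher and none lower, where 1.04% of 15098 genes were higher and 2.19% lower. Amelx was listed at 0 in the double heterozygote and was at 19.7 FPKM in the double knockout, with a q-value of 1.56e-08 in the authors' deposited table. Ambn was at 0.154 and 4.17 FPKM, with a log2 ratio of 2.16 and a q-value of 6.35e-06 in the authors' deposited table. Dspp was at 0.0488 and 3.38 FPKM, with a log2 ratio of 2.06 and a q-value of 6.25e-09 in the authors' deposited table. That test set 1 library against 1 library and so compares the libraries, not the genotypes, and it called 0.676% of the 15098 genes higher and 3.42% lower at a q-value under 0.05.

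Of the other enamel genes, all but Odam stayed low at PND21. Enam was at 0.137 FPKM in the double heterozygote and 0.443 in the double knockout, Amtn was listed at 0 and at 0.146, Mmp20 was listed at 0 and at 0.0409, and Klk4 was listed at 0 in both. Odam was at 103 FPKM in the double heterozygote and 73.5 in the double knockout, with a log2 ratio of -0.48 and a q-value of 0.124 in the authors' deposited table. By FPKM it ranked 438 in the double heterozygote and 706 in the double knockout among 22028 genes. Odam was thus the only abundant member, of the 8, at this age, at 373% of Amelx FPKM in the double knockout library where both were present. In the double heterozygote, Amelx, Amtn, Mmp20 and Klk4 were listed at 0 while Odam was at 103 FPKM. At this age Odam was thus not high and low with the other enamel genes, and which cells it came from was not tested. The tables were made separately, so the Odam levels of 1.61 to 31.9 FPKM at E18.5 and those at PND21 are set side by side only as levels.

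**Figure D5:**
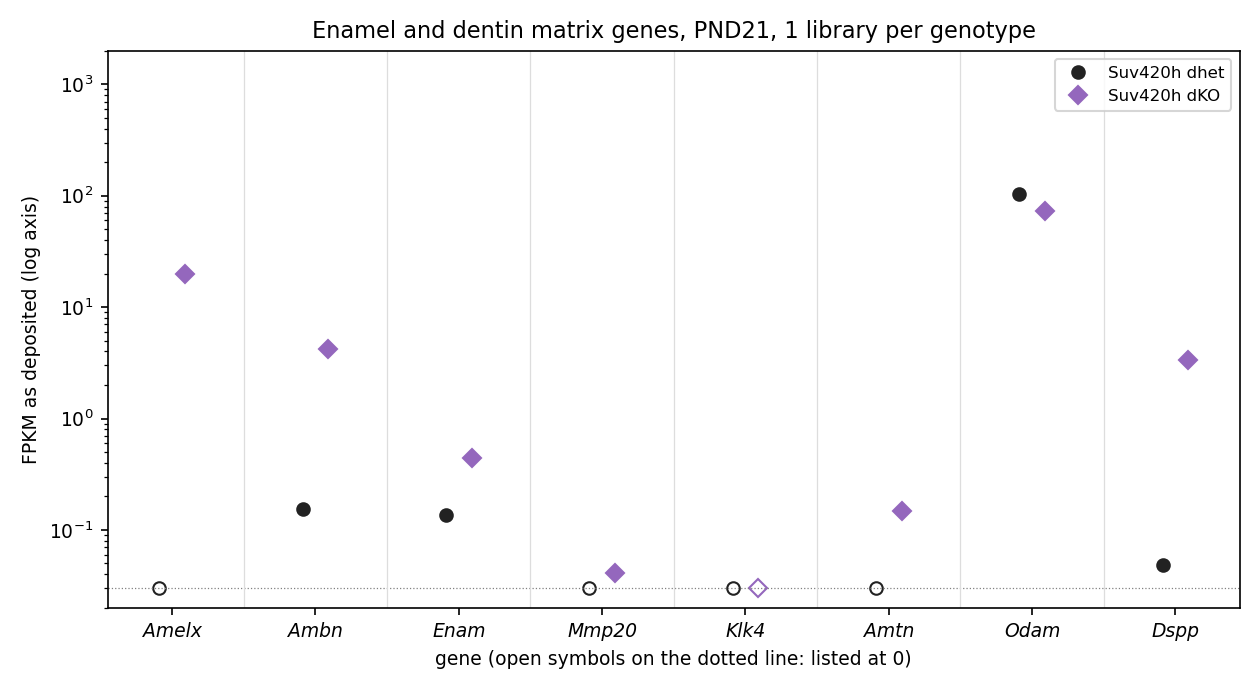
FPKM (log axis) of the 8 matrix genes in the PND21 Suv420h double heterozygote and double knockout libraries, 1 point per library, with no interval deposited. Odam is high in both at 103 and 73.5 FPKM, and Amelx, Ambn and Dspp are at 19.7, 4.17 and 3.38 FPKM in the double knockout.

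Genes of bone, dental mesenchyme and muscle lay the other way in the postnatal pair, and their part in the result was not tested. Among all genes, 2.19% were at least 2-fold lower in the double knockout and 1.04% higher. All 5 measured skeletal muscle genes were at least 2-fold lower in the double knockout, with a summed level of 99.96 FPKM in the double heterozygote and 4.69 in the double knockout for the list of 6, of which Tnnt3 was at 0 in the double knockout. Of 6 bone genes, Bglap at 1114 and 282 FPKM and Ifitm5 at 11.9 and 4.45 were at least 2-fold lower, with summed levels of 1212 and 337 FPKM. Of 10 measured odontoblast and dental mesenchyme genes, 4 were lower and none higher, among them Col1a1, a chain of the main collagen of bone and dentin, at 1858 and 660 FPKM. Dspp, higher in the double knockout, lies beside Dmp1, which was at 94.2 FPKM in the double heterozygote and 25.8 in the double knockout. The 16 measured ameloblast and dental epithelium genes had a median log2 ratio of -0.16, beside -0.06 over all genes. Olfactory markers differed little, with summed levels of 2622 and 2627 FPKM for mature neurons and 3093 and 2961 for supporting cells.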

How the data were processed

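Polyadenylated RNA of 6 libraries, 4 at E18.5 and 2 at PND21 with 1 per genotype, was prepared with ScriptSeq V2 per the labels' protocols. The submitters' processing notes name TopHat, Cufflinks, Cuffdiff and build mm9, with no version (annotation: not given in the sources used here). FPKM was deposited per gene symbol with, per the file headers, bounds of an interval at E18.5 and p-values and q-values at PND21. In the postnatal workbook 2 columns of values carry no sample name and were not used. Groups came from the labels.

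Ratios were computed on log2(FPKM + 1) with Python 3.11.15, numpy 2.4.6 and pandas 2.3.3, among genes at 1 FPKM or more in either library, and counted at 2-fold; the step was tested on simulated data. Symbols of very short RNAs (Mir, Snor, Rnu, Scarna, n-R) were left out of these counts. No test between groups was possible. Deposited spans are on mm9 and written from 1. Alternatives were a pseudocount of 0.1, no minimum or 5 FPKM, scaling by the median ratio, and intervals that do not overlap. The members and lists were chosen with earlier results of these data known. Named genes were the members, up to 4 genes of each list and the 5 nearest profiles of Amelx and Dspp; list genes within 2-fold, neighbours, Arhgap6, Xist and the targeted genes were named after their values were seen. Protein sequences were not used here.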

Additional observations from a re-analysis of the deposited data

How the results depend on the processing

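Of 38 counts of members at least 2-fold apart under another setting, 37 stayed within 1.5 times the reported count. The exception was the count of members higher in the Suv420h double knockout than in the Suv420h double heterozygote, which was 3 as reported and 1 with a minimum of 5 FPKM, where Amelx alone remained since Ambn and Dspp are below 5 FPKM in both libraries. Demanding intervals that do not overlap left 3, 8 and 8 members lower in the G9a knockout, the G9a KO GLP heterozygote and the G9a/GLP double knockout. Of 64 log2 ratios of members under a pseudocount of 0.1 FPKM or median ratio scaling, none of those 2-fold apart changed sign and 12 moved by a factor of more than 1.5 in fold, each away from 0 with the smaller pseudocount; Mmp20 in the double knockout went from -1.91 to -3.62. Median ratios used for scaling lay between 0.970 and 1.02. With the pseudocount of 0.1 FPKM, 5 of the 5 genes nearest to Amelx and 4 of the 5 nearest to Dspp were shared. The comparisons among the 3 knockout libraries, the neighbours within 300 kb and the letters TGATTGG were added after seeing the data. No paired analysis was possible because each genotype had 1 library, and no library could be left out of a group. Total depth is unknown. In the double knockout the intervals of Mmp20, Klk4 and Odam reach 0, and that of Amtn is 0 to 0.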
